A study of Mus musculus with 24 samples.

Results

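Cyp4a10, Cyp4a14, Cyp4a31, Cyp4a32, Cyp4a12a and Cyp4a12b are 6 of the 15161 genes in a table of raw read counts from mouse liver. They were chosen by symbol as 2 classes with opposite responses to methionine restriction (MR). Cyp4a10, Cyp4a14, Cyp4a31 and Cyp4a32 stand for genes driven by the fatty acid sensor PPARalpha, and Cyp4a12a and Cyp4a12b for genes driven by hormones. Because the change with MR led to the choice, the members' MR effects are given below as description with no p-value. Tests are kept for comparisons that the choice did not use directly. The diet comparisons among them draw on the same libraries, so their p-values cannot be taken as independent of the choice.

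The study measured liver RNA of male C57BL6/J mice aged 4 months on 4 diets, with 6 libraries per diet. Both control diets contained 0.86% methionine and both MR diets 0.17%. The elemental control and elemental MR diets supplied protein as elemental amino acids. The sample labels call the casein control diet casein and the casein MR diet oxidized casein, while the series' design text speaks of oxidized casein for both. By the sample labels, on casein the oxidation and the restriction cannot be told apart, and between the MR diets the oxidation and the protein source cannot be told apart. The labels name each library, as in E_C_3401 (elemental, control) or C_MR_3431 (casein, MR), by a number of its own without saying that it is an animal, so p-values measure the spread between these libraries.

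Cyp4a enzymes are cytochrome P450s of the endoplasmic reticulum that hydroxylate fatty acids at or next to their terminal carbon, the entry step of omega-oxidation. In mouse liver Cyp4a10 and Cyp4a14 are classical targets of PPARalpha, a nuclear receptor that binds fatty acids and acts as a dimer with RXR. Cyp4a12a is the male-predominant enzyme of the family, forms 20-HETE from arachidonic acid, and depends on androgen and on the male pattern of growth hormone release.

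Coding sequences are shown because the classes do not follow sequence likeness, and because near-identical copies limit how reads can be assigned. The stretch that encodes the heme-binding loop, the part of a P450 that holds the heme iron, is printed 5′ to 3′ on the coding strand from GENCODE M21 transcripts (GRCm38), with the 10 positions that vary among the 6 genes in capitals.
Cyp4a10: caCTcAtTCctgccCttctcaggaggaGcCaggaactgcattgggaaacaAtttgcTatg
Cyp4a31: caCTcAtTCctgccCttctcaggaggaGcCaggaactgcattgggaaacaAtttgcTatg
Cyp4a32: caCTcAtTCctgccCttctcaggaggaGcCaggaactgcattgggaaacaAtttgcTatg
Cyp4a14: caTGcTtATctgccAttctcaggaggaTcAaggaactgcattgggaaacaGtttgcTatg
Cyp4a12a: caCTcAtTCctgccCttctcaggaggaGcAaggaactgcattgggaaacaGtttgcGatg
Cyp4a12b: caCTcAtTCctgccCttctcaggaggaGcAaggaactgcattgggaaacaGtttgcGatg
In these 60 bases Cyp4a10, Cyp4a31 and Cyp4a32 were identical, and so were Cyp4a12a and Cyp4a12b, which differed from Cyp4a10 at 3 positions. Cyp4a14 differed from Cyp4a10 at 9 positions, although it shared the direction of Cyp4a10 and not of the Cyp4a12 pair. Over the whole coding sequence Cyp4a12a and Cyp4a12b were 98.5% identical, with 23 mismatches in 1527 bases. Cyp4a10 was 96.6% identical to Cyp4a31, 97.2% to Cyp4a32, 80.3% to Cyp4a12a and 76.1% to Cyp4a14. By sequence, Cyp4a10 was therefore nearer to the Cyp4a12 pair than to Cyp4a14.

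The stretches where the copies differ most show what a read needs in order to be assigned. Capitals mark the positions that differ, first within the Cyp4a12 pair (bases 624 to 683 of the coding sequence) and then within the Cyp4a10, Cyp4a31 and Cyp4a32 set (bases 200 to 259).
Cyp4a12a: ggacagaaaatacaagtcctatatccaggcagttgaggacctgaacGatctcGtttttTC
Cyp4a12b: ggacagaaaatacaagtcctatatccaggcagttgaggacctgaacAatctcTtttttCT
Cyp4a10: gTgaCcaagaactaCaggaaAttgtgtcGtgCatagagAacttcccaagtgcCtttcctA
Cyp4a31: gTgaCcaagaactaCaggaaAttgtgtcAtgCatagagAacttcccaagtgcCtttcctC
Cyp4a32: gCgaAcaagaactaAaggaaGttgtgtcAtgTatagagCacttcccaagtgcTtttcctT
Even the richest stretch of the Cyp4a12 pair held only 4 differences. In the other set 9 positions varied over all its copies together. Most of them set Cyp4a32 apart, and Cyp4a10 and Cyp4a31 carried the same base at most of them. All 75-base windows of the Cyp4a14 transcript occurred in no other gene, and so did 86.1% of those of Cyp4a31, 80.9% of Cyp4a10, 69.6% of Cyp4a32, 59.2% of Cyp4a12a and 58.7% of Cyp4a12b. The sources used here do not state the read length or how reads that fit several genes were treated. Values of Cyp4a12a, Cyp4a12b, Cyp4a10, Cyp4a31 and Cyp4a32 as separate genes are therefore uncertain, and each comparison was also made with the copies summed.

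Libraries held between 13458941 and 20762532 counts, and all 6 genes were among the 13441 that passed the filter on low counts. Levels are given as CPM, read counts set relative to the library total after scaling by TMM, a factor that balances the libraries' composition.

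Cyp4a14, an omega-hydroxylase and the most abundant transcript of the family on 3 of the 4 diets, ranged from 202.2 to 1270.3 CPM (median 731.1) on the elemental control diet and from 2694.9 to 3892.0 CPM (median 3007.5) on elemental MR. It ranged from 126.0 to 699.5 CPM (median 431.8) on casein control and from 5812.5 to 9376.6 CPM (median 7267.8) on casein MR. Every MR library stood above every control library of its protein source, and every casein MR library above every elemental MR library. The log2 fold change with MR was 2.04 ± 0.34 (SE, n = 6 against 6) on elemental amino acids and 4.22 ± 0.38 (n = 6 against 6) on casein, or 4.12-fold and 18.6-fold. Over all genes tested 13.4% were called with MR on elemental amino acids and 23.3% on casein, figures given beside the separation of the groups from which nothing is read here, since the choice of genes used these comparisons. This gene alone took 0.804% ± 0.12 (SD, n = 6) of all counts on casein MR, against 0.0367% ± 0.0206 (SD, n = 6) on casein control.

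Cyp4a10, the other well-known PPARalpha-induced omega-hydroxylase, ranged from 278.8 to 597.9 CPM (median 573.2) on elemental control and from 814.1 to 1341.7 CPM (median 898.4) on elemental MR. On casein control it ranged from 88.0 to 511.2 CPM (median 410.0), and on casein MR from 1974.3 to 3592.7 CPM (median 2348.9). Again no control library reached an MR library of the same protein source. The log2 fold change with MR was 1.02 ± 0.29 (SE) on elemental amino acids and 2.91 ± 0.31 (SE) on casein, with n = 6 against 6 each. In the casein control group 2 libraries, C_C_3413 at 88.0 CPM and C_C_3436 at 150.2 CPM, lay far below the other 4, and the same 2 were lowest for Cyp4a14, at 126.0 and 189.8 CPM.

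Cyp4a31, a close copy of Cyp4a10, was expressed at a lower level with the same order of diets. It ranged from 12.9 to 39.6 CPM on elemental control (median 28.2), from 58.2 to 147.6 CPM on elemental MR (median 87.3), from 8.18 to 25.3 CPM on casein control (median 12.0) and from 175.1 to 443.7 CPM on casein MR (median 246.8). MR and control libraries did not overlap on either protein source. Its log2 fold change with MR was 1.76 ± 0.27 (SE) on elemental amino acids and 4.10 ± 0.30 (SE) on casein, close to that of Cyp4a14 and above that of its nearer relative Cyp4a10 on casein.

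Cyp4a32, the third copy, was barely expressed and did not separate the diets. It ranged from 1.03 to 2.13 CPM on elemental control, 1.19 to 2.30 on elemental MR, 0.405 to 1.81 on casein control and 1.09 to 4.39 on casein MR. MR and control libraries overlapped on both protein sources, with log2 fold changes of 0.25 ± 0.32 (SE) and 1.19 ± 0.32 (SE). Since 20.7% of its 75-base windows also occur in the far more abundant Cyp4a10, the share of its counts that came from Cyp4a10 reads was not tested.

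**Figure D1:**
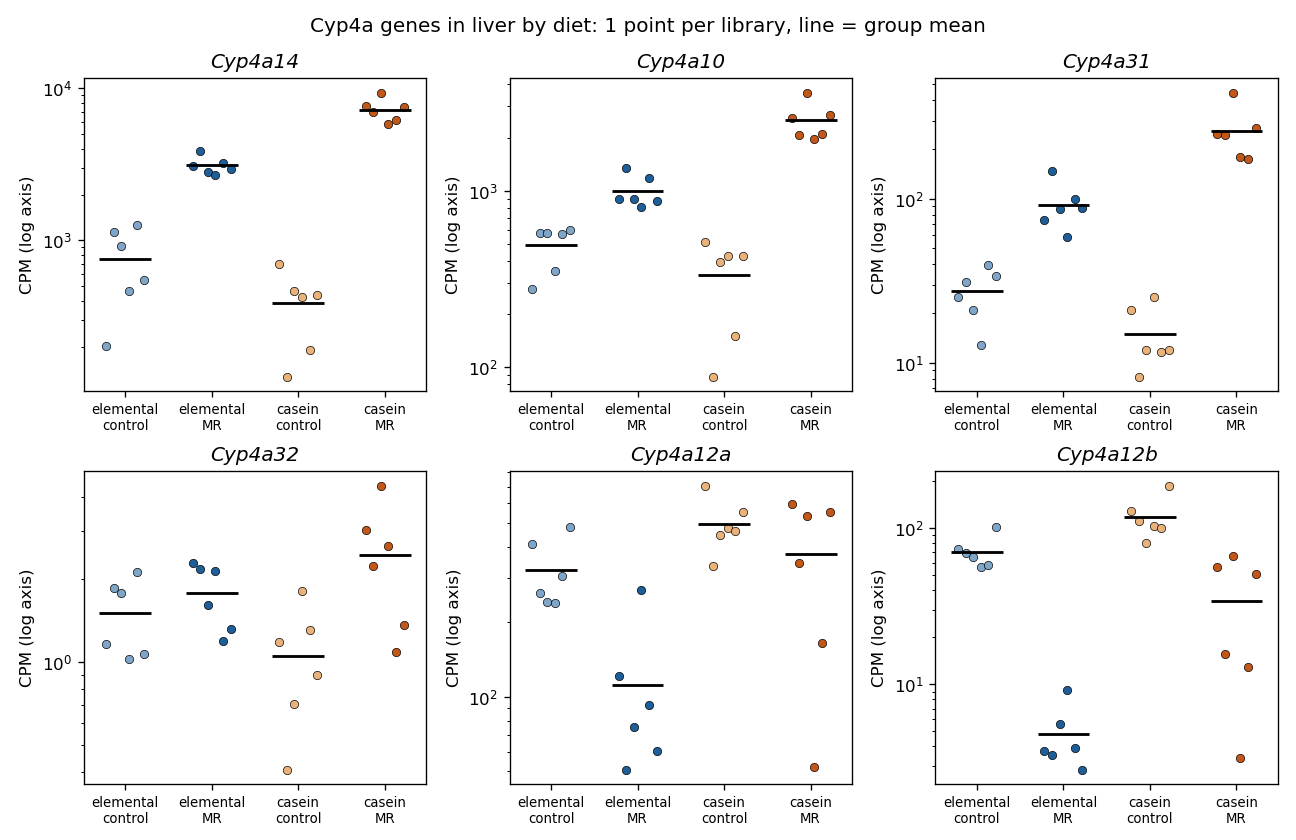
CPM of each gene on a log axis in the 24 libraries by diet, 1 point per library, with a line at the mean of each group of 6. Cyp4a14, Cyp4a10 and Cyp4a31 are highest on casein MR (for Cyp4a14, 5812.5 to 9376.6 CPM), while Cyp4a12b is lowest on elemental MR (2.82 to 9.25 CPM).

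The Cyp4a12 pair went the other way on elemental amino acids. Cyp4a12b ranged from 56.5 to 101.9 CPM (median 67.4) on elemental control and from 2.82 to 9.25 CPM (median 3.85) on elemental MR, so that every MR library lay several times below every control library. On casein control it ranged from 80.9 to 187.5 CPM (median 107.4), and on casein MR from 3.36 to 66.3 CPM (median 33.2), again with no overlap. The log2 fold changes with MR were -3.87 ± 0.47 (SE) and -1.80 ± 0.41 (SE), a level 14.6-fold lower on elemental MR and 3.47-fold lower on casein MR, with n = 6 against 6 each. With Cyp4a12a and Cyp4a12b summed, the log2 fold changes were -1.76 ± 0.42 (SE) and -0.59 ± 0.40 (SE).

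Cyp4a12a, the more abundant copy and the 20-HETE-forming enzyme, ranged from 238.1 to 481.2 CPM (median 284.2) on elemental control and from 50.6 to 268.9 CPM (median 83.9) on elemental MR. Of the 6 elemental MR libraries 5 lay below all controls, and library E_MR_3420, at 268.9 CPM, lay within the control range. On casein control it ranged from 335.3 to 706.9 CPM (median 469.8), and on casein MR from 51.9 to 597.9 CPM (median 440.0), where only 2 libraries lay below all controls. The log2 fold change with MR was -1.53 ± 0.42 (SE) on elemental amino acids, and on casein it was -0.41 ± 0.40 (SE), with a 95% interval of -1.24 to 0.42. The label of opposite responses does not describe Cyp4a12a on casein, where 4 of 6 MR libraries lay within the control range.

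MR libraries of the Cyp4a12 genes spread widely on casein. The highest casein MR library of Cyp4a12a exceeded the lowest 11.5-fold, against 2.11-fold on casein control, and for Cyp4a12b the ratio was 19.7 against 2.32. Library C_MR_3431 was the lowest for both genes (51.9 and 3.36 CPM), followed by library C_MR_3433 for both (164.9 and 13.0 CPM). Cyp4a10, by contrast, spread only 1.82-fold on casein MR and 5.81-fold on casein control. Library C_MR_3431 also held the highest summed level of 16 Kupffer cell and macrophage markers on casein MR, 1201.5 CPM against at most 804.5 CPM in the other 5, and of 16 endothelial and stellate markers, 982.0 CPM against at most 839.2 CPM. The part of these cells in its low Cyp4a12 levels was not tested, and in bulk tissue fewer cells of a type and less RNA per cell cannot be told apart.

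The balance within the Cyp4a12 pair moved with MR. Cyp4a12b made up 18.4% ± 2.58 (SD, n = 6) of the pair's counts on elemental control and 4.72% ± 1.64 (SD, n = 6) on elemental MR. On casein the share was 19.4% ± 4.53 (SD, n = 6) under control and 7.62% ± 2.30 (SD, n = 6) under MR. The lowest control library, at 15.2%, lay above the highest MR library, at 11.0%. Because 40.8% of the 75-base windows of Cyp4a12a also occur in Cyp4a12b, these shares depend on how such reads were assigned.

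**Figure D2:**
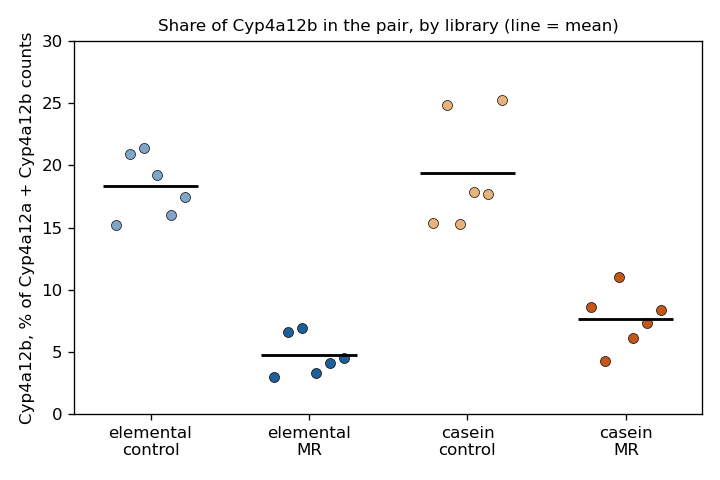
Share of Cyp4a12b in the summed counts of Cyp4a12a and Cyp4a12b (percent) by diet, 1 point per library with a line at each mean. Control libraries lie between 15.2% and 25.3%, and all MR libraries at or below 11.0%.

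Order of the levels was compared per kilobase of the gene's merged exons (CPM/kb), which allows one gene to be set beside another. On casein MR the means were 2790.0 CPM/kb for Cyp4a14, 1187.1 for Cyp4a10, 154.6 for Cyp4a12a, 103.7 for Cyp4a31, 14.3 for Cyp4a12b and 1.60 for Cyp4a32. The ranges of Cyp4a12a and Cyp4a31 overlapped, as did those of Cyp4a12b and Cyp4a32, and no others between neighbours. On casein control Cyp4a12a led with 205.5 CPM/kb, ahead of Cyp4a10 at 157.8 and Cyp4a14 at 150.1, and the ranges of these 3 overlapped. Below them stood Cyp4a12b at 49.5 CPM/kb, whose range overlapped those of Cyp4a10 and Cyp4a14, then Cyp4a31 at 5.99 and Cyp4a32 at 0.685, which overlapped no neighbour. On elemental control the means were 290.8 CPM/kb for Cyp4a14, 233.6 for Cyp4a10 and 133.5 for Cyp4a12a, again with overlapping ranges, then 29.6 for Cyp4a12b, 10.9 for Cyp4a31 and 0.982 for Cyp4a32. On elemental MR the order was Cyp4a14 (1196.5 CPM/kb), Cyp4a10 (474.8), Cyp4a12a (46.0), Cyp4a31 (36.8), Cyp4a12b (2.01) and Cyp4a32 (1.17), and in both of these lower pairs the ranges overlapped. Summed over the family, the 6 genes took 0.127% ± 0.0504 (SD, n = 6) of counts on casein control and 1.15% ± 0.209 (SD, n = 6) on casein MR.

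Whether the response to MR differed between the protein sources was tested with the difference of the MR effects, casein minus elemental. The choice of genes did not use this contrast itself, but it is built from the MR effects that led to the choice. Its p-values therefore cannot be taken as independent of the choice. The test was edgeR's quasi-likelihood test with Benjamini-Hochberg adjustment over 13441 genes, called at an adjusted p under 0.05, and 2.34% of those genes were called. Of the 6 Cyp4a genes 3 were called, all with a larger rise on casein. The difference was 2.35 ± 0.39 (SE, edgeR adjusted p = 0.000743) on the log2 scale for Cyp4a31, 2.17 ± 0.47 (edgeR adjusted p = 0.00906) for Cyp4a14 and 1.89 ± 0.41 (edgeR adjusted p = 0.00866) for Cyp4a10. Cyp4a12b differed by 2.08 ± 0.60, which missed the threshold in edgeR (adjusted p = 0.0686) but passed it when library E_MR_3420 (0.0418), C_MR_3431 (0.00617) or C_MR_3433 (0.0394) was left out. Cyp4a12a (1.12 ± 0.58, edgeR adjusted p = 0.439) and Cyp4a32 (0.94 ± 0.45, edgeR adjusted p = 0.404) were not called. With the near-identical copies summed, the Cyp4a10, Cyp4a31 and Cyp4a32 set differed by 1.92 (edgeR adjusted p = 0.00693) and the Cyp4a12 pair by 1.17 (edgeR adjusted p = 0.41).

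Between the control diets no Cyp4a gene was called, where 0.104% of all genes were. All 4 genes of the PPARalpha class were nonetheless estimated lower on casein control, from -0.49 for Cyp4a32 to -0.95 for Cyp4a14 on the log2 scale, and the Cyp4a12 pair higher, at 0.62 and 0.74. The adjusted p-values in edgeR ran from 0.228 to 0.605, and the groups overlapped for each gene. An unadjusted p under 0.05 was reached in edgeR by 2 of the 6, Cyp4a14 (0.00833) and Cyp4a31 (0.00575), and limma-voom and DESeq2 likewise called 0 after adjustment, DESeq2 giving no adjusted p for Cyp4a32.

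Between the MR diets both classes were higher on casein, where 6.5% of all genes were called in either direction and 2.72% as higher on casein MR. Of the 6 Cyp4a genes 5 were called, all of them higher. Cyp4a12b had the largest log2 difference of the 6, 2.82 ± 0.46 (SE, edgeR adjusted p = 0.000231), with 5 of 6 casein MR libraries above all elemental MR libraries. Cyp4a12a was higher by 1.75 ± 0.42 (edgeR adjusted p = 0.00904), with 4 of 6 libraries above. Cyp4a31 was higher by 1.49 ± 0.27 (edgeR adjusted p = 0.000518), Cyp4a10 by 1.32 ± 0.29 (edgeR adjusted p = 0.00432) and Cyp4a14 by 1.22 ± 0.33 (edgeR adjusted p = 0.0249), each with 6 of 6 libraries above. The call of Cyp4a14 was lost when any of 5 libraries was left out (E_MR_3403, E_MR_3416, E_MR_3420, E_MR_3424 or C_MR_3425), at edgeR adjusted p-values of up to 0.0548, while its groups still did not overlap. Cyp4a32 was not called (0.44 ± 0.30, edgeR adjusted p = 0.467).

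**Figure D3:**
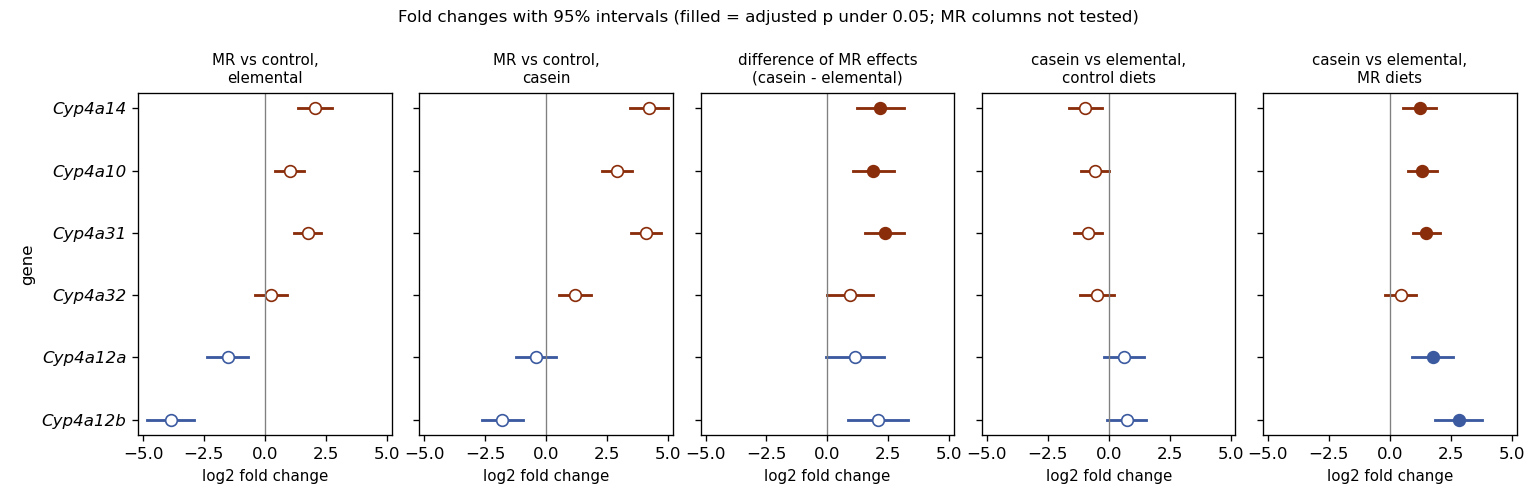
Log2 fold change of each gene in the 5 comparisons, with lines for the 95% interval and filled points for an adjusted p under 0.05; the MR comparisons in the first and second panels carry no test. In the panel of the MR diets 5 of 6 genes lie to the right of 0 and are filled, from 1.22 for Cyp4a14 to 2.82 for Cyp4a12b.

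The variation of libraries around their diet's mean was compared between members, a property that the choice of genes did not use. After each diet group's mean was subtracted from the log2 CPM, 4 of the 15 pairs were correlated over the 24 libraries at a Benjamini-Hochberg adjusted p under 0.05, all of them within a class. Cyp4a12a and Cyp4a12b gave Pearson r = 0.88 (Spearman rho = 0.74, permutation p = 9e-05, adjusted p = 0.000675), or 0.78 without the 2 libraries farthest from the median; the part of shared reads in this value was not tested. Cyp4a10 and Cyp4a14 gave r = 0.87 (Spearman rho = 0.84, permutation p = 1e-05, which is the smallest the permutations can give, adjusted p = 0.00015). No 75-base window of Cyp4a14 occurs in Cyp4a10. Leaving out the 2 farthest libraries gave r = 0.82 for this pair. Cyp4a10 with Cyp4a31 gave r = 0.67 (rho = 0.70, permutation p = 0.00076, adjusted p = 0.0038), and Cyp4a31 with Cyp4a32 r = 0.54 (rho = 0.44, permutation p = 0.0114, adjusted p = 0.0428), which fell to 0.45 without the 2 farthest libraries and was not called by Spearman's rho (permutation test, adjusted p = 0.123). Cyp4a14 with Cyp4a31 missed the threshold by Pearson's r (0.55, permutation p = 0.017, adjusted p = 0.0509) and passed it by Spearman's rho (0.57, permutation p = 0.01, adjusted p = 0.0375). Cyp4a32 with Cyp4a10 (r = 0.44) and with Cyp4a14 (r = 0.48) was not called by either.

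The 8 pairs across the classes had r between 0.10 and 0.27 and none was called. These pooled values joined unlike diets. On elemental MR, Cyp4a12a had r of -0.86 with Cyp4a31, -0.64 with Cyp4a14 and -0.59 with Cyp4a10, whereas on casein MR the same pairs had r of 0.72, 0.83 and 0.70, and on casein control 0.65, 0.85 and 0.80. Cyp4a12b and Cyp4a14 had r of 0.89 on casein MR, as high as pairs within a class. Each of these rests on 6 libraries and is a description, and the difference between the diets was not tested.

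The covariation was extended, after the other results had been seen, to 38 pairs of Cyp4a14 or Cyp4a12b with named genes of either class. By Pearson's r, Cyp4a14 was correlated at an adjusted p under 0.05 with 6 of 11 PPARalpha targets and with none of 8 sex-biased genes. Its highest values were with the acyl-CoA thioesterases Acot1 (r = 0.69, rho = 0.71, permutation p = 0.00258, adjusted p = 0.0163) and Acot2 (r = 0.67, rho = 0.70, permutation p = 2e-05, adjusted p = 0.00076), and with the fatty acid transporter Cd36 (r = 0.68, rho = 0.60, permutation p = 0.00486, adjusted p = 0.0231). Without the 2 farthest libraries these became 0.54, 0.59 and 0.60. Cyp4a12b was correlated by Pearson's r with all 6 male-biased genes and with none of the 11 PPARalpha targets. It followed the organic anion transporter Slco1a1 (r = 0.81, rho = 0.59, permutation p = 0.00447, adjusted p = 0.0231) and the male-specific P450 Cyp2d9 (r = 0.75, rho = 0.73, permutation p = 0.00026, adjusted p = 0.00494), and ran against the female-specific P450 Cyp2b9 (r = -0.35, rho = -0.37, permutation p = 0.0142, adjusted p = 0.0414). Without the 2 farthest libraries the values were 0.64, 0.65 and -0.38. Some of these calls were lost by Spearman's rho (permutation test, adjusted p). For Cyp4a14 this was Ehhadh (0.0697). For Cyp4a12b these were Hsd3b5 (0.0621), Slco1a1 (0.0978) and Cyp2b9 (0.125).

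**Figure D4:**
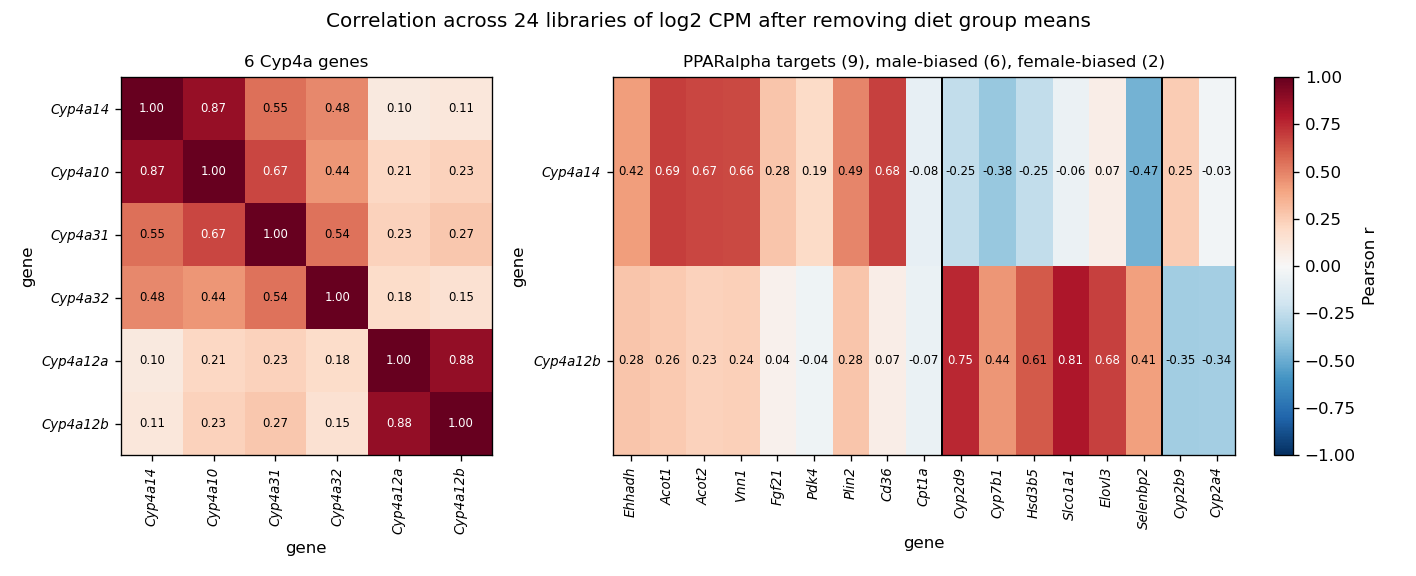
Pearson r over 24 libraries of log2 CPM after removing diet group means, among the 6 genes (left) and for Cyp4a14 and Cyp4a12b with 17 of the 19 named genes (right), from blue at -1 to red at 1. Pooled over the diets, values run from 0.44 to 0.88 within a class and from 0.10 to 0.27 across classes.

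Apart from the 6 Cyp4a genes themselves, the genes with the most similar pattern over all 24 libraries were found by the root mean square difference of centred log2 CPM, which includes the diet means. Nearest to Cyp4a10 outside the family were Acot2 (0.44), Acot1 (0.44) and Cd36 (0.58). Nearest to Cyp4a31 were Acot2 (0.57), Acot1 (0.64) and the lipoprotein receptor Vldlr (0.73), and nearest to Cyp4a14 were Vldlr (0.68), Gpat3 (0.76) and Gsta2 (0.81), while Cyp4a14 and Cyp4a31 were 0.59 from each other. Nearest to Cyp4a12a were Cyp2d9 (0.62), Zfp979 (0.63) and Mup6 (0.67), and nearest to Cyp4a12b were the major urinary protein genes Mup17 (0.82), Mup15 (0.86) and Mup21 (0.93). The nearest neighbours of Cyp4a32 were Hsdl2, Wrnip1 and Dnase2a (0.42 to 0.43). Their log2 fold changes with MR were 0.47, 0.4 and 0.49 on elemental amino acids and 1.08, 0.63 and 1.06 on casein. Cyp4a12a and Cyp4a12b, for all their identity, were no nearer than 1.05 to each other.

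Other PPARalpha targets were taken from a list of 45 genes without Cyp4a members, of which 44 were tested. With MR on elemental amino acids 12 rose and 2 fell, where 6.78% of all genes rose, and the list's median log2 fold change was 0.22 against -0.003 for all genes. With MR on casein 32 rose and 1 fell, where 10.6% of all genes rose, with a median of 0.52 against 0.01. The difference of the MR effects was called in 14, all larger on casein, against 0.781% of all genes in that direction. Between the MR diets 25 of the 44 were higher on casein and none lower, where 2.72% of all genes were higher and 3.78% lower. The Cyp4a genes other than Cyp4a32 were higher there too. Acot2, which releases fatty acids from coenzyme A in mitochondria, rose by 1.29 ± 0.19 (edgeR adjusted p = 3.75e-05) and by 2.97 ± 0.20 (2.31e-11), and Ehhadh, a peroxisomal beta-oxidation enzyme, rose on casein by 3.11 ± 0.37 (3.51e-07) with 0.71 ± 0.35 (0.202) on elemental amino acids. Several targets did not pass the test on either protein source, among them Cpt1a (-0.13 and -0.19), Plin2 (-0.13 and -0.17), Pdk4 (0.41 and 1.0) and Fgf21 (1.69 and 1.62).

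Of 21 genes of omega-oxidation and dicarboxylic acid breakdown, 12 of which are also on the target list, 5 rose and 5 fell with elemental MR, where 6.78% of all genes rose and 6.64% fell, and 14 rose and 4 fell with casein MR, where 10.6% rose and 12.7% fell. Por, the reductase that passes electrons to P450 enzymes, rose by 0.87 ± 0.21 (edgeR adjusted p = 0.00447) and 0.90 ± 0.21 (0.00161). Ppara itself was -0.39 ± 0.16 with elemental MR (edgeR adjusted p = 0.117) and fell by 0.59 with casein MR (0.00762), opposite to its Cyp4a targets. Its partner Rxra did not pass the test, at 0.14 and 0.01.

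Male-biased genes of liver were counted from a list of 34 without Cyp4a genes, of which 32 were tested. With elemental MR 28 fell and none rose, where 6.64% of all genes fell, and with casein MR 30 fell and 1 rose, where 12.7% of all genes fell. The median log2 fold change was -1.72 on elemental amino acids and -2.27 on casein, and 28 of the 32 had the lower value on casein. The values of Cyp4a12a and Cyp4a12b were nearer 0 there, which was not particular to them. In the list, Cyp2d9 (-1.58 and -0.92) and Elovl3 (-1.63 and -1.23) were also nearer 0 on casein. Of the other genes nearest to the pair by pattern, so were Mup17 (-2.93 and -2.08), Mup15, Mup6 and Zfp979, but not Mup21 (-2.42 and -3.05). Between the MR diets 7 of the 32 were lower and 2 higher on casein, where 3.78% of all genes were lower and both Cyp4a12 genes were higher. Hsd3b5, a steroid dehydrogenase of male liver, fell by 3.10 on elemental MR (edgeR adjusted p = 0.000386) and fell by 6.52 on casein MR (6.97e-08), a called difference of -3.42 ± 0.84 (0.0242). Cyp2d9, the nearest gene to Cyp4a12a, was higher on casein MR than on elemental MR by 0.94 ± 0.21 (edgeR adjusted p = 0.0044). The other gene of the list called higher there was Cspg5, named after its value was seen. Of 25 female-biased genes tested 13 rose and 1 fell with elemental MR (6.78% and 6.64% of all genes), and 16 rose and 3 fell with casein MR (10.6% and 12.7% of all genes). Cyp2b9 rose by 5.12 ± 0.51 (edgeR adjusted p = 7.78e-08) and 5.82 ± 0.50 (1.71e-09).

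**Figure D5:**
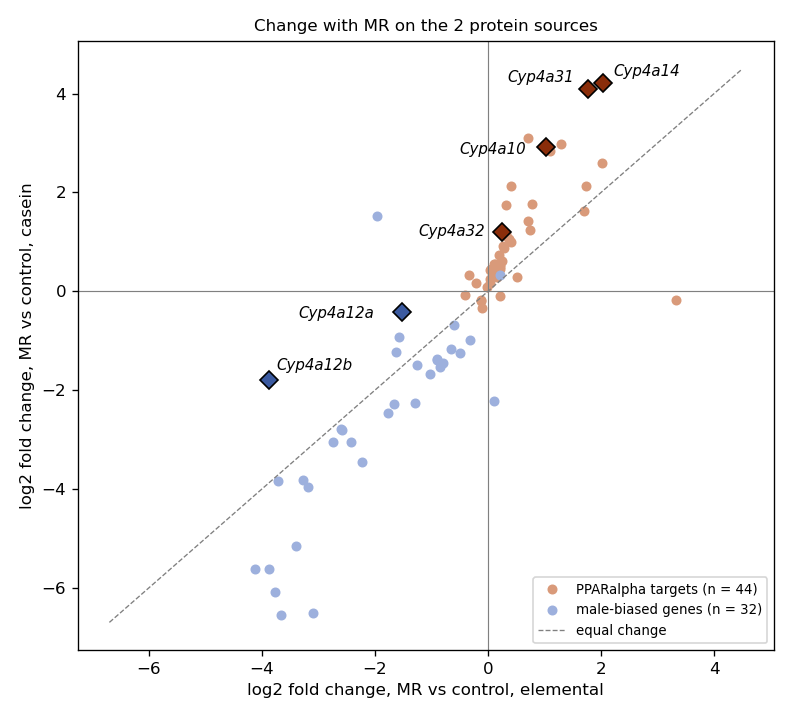
Log2 fold change with MR on elemental amino acids (horizontal) and on casein (vertical) for 44 PPARalpha targets, 32 male-biased genes and, as labelled diamonds, the 6 Cyp4a genes; the dashed line marks equal change. All 6 Cyp4a genes lie above the line (Cyp4a12b at -3.87 and -1.80), whereas 28 of the 32 male-biased genes lie below it.

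Regulators of the male pattern changed in part. Ghr, the growth hormone receptor, fell by 0.75 on elemental MR (edgeR adjusted p = 2.03e-07) and by 1.16 on casein MR (2.42e-11). The difference was called (-0.41 ± 0.11, edgeR adjusted p = 0.0478). Ghr was also lower on casein MR than on elemental MR (-0.39 ± 0.08, edgeR adjusted p = 0.00196), where both Cyp4a12 genes were higher. Bcl6, a repressor of female-biased genes, fell by 2.22 on casein MR (edgeR adjusted p = 0.0111), against 0.11 ± 0.61 (0.942) on elemental amino acids, and the difference was not called (0.219). Cux2, a female-specific repressor of male-biased genes, rose by 2.61 ± 0.57 on casein MR (edgeR adjusted p = 0.0011) from a mean of 0.485 to 3.01 CPM, against 1.59 ± 0.56 on elemental MR (0.0572), and the difference was not called (0.693). Stat5b (0.19 and -0.00) and Hnf4a (0.24 and 0.04) did not pass the test.

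The rest of the Cyp4 family was looked at beside the PPARalpha class. Of 14 other Cyp4 genes 6 were tested, and none rose on either protein source, where 6.78% and 10.6% of all genes rose. At these shares, none of 6 genes rising is not unusual. Over all genes 6.64% fell with elemental MR and 12.7% with casein MR. Cyp4f14, a hydroxylase of leukotriene B4 and vitamin K side chains, fell by 0.58 on elemental MR (edgeR adjusted p = 7.55e-05) and by 1.36 on casein MR (2.63e-11), with a called difference of -0.78 ± 0.13 (0.000869). Cyp4v3 fell by 0.80 on casein MR (edgeR adjusted p = 8.68e-05), and Cyp4b1, Cyp4f13, Cyp4f15 and Cyp4f16 did not pass the test. Of 28 genes within 10 places of a member in the reference order 7 were tested. Only Pdzk1ip1 among them was called, and it fell by 1.06 (edgeR adjusted p = 0.0451) and 1.46 (0.00212). Cyp4b1, Efcab14, Mknk1, Atpaf1, Mob3c and Tal1 were not called on either protein source. Over all genes 13.4% were called in either direction with elemental MR and 23.3% with casein MR, so 1 of 7 is not unusual.

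Markers of the tissue moved with the casein MR diet as well. The 14 hepatocyte markers summed to between 138435.6 and 144878.0 CPM on elemental control, 125625.0 and 137742.7 on elemental MR, 126144.3 and 144188.3 on casein control, and 101006.5 and 110030.9 on casein MR, and 3 of them fell with elemental MR and 13 with casein MR, where 6.64% and 12.7% of all genes fell. Of 20 pericentral markers, from the zone where Cyp4a enzymes are known to be enriched, 7 fell with elemental MR and 13 with casein MR, against the same 6.64% and 12.7%, and none rose. No Kupffer cell marker was called with MR. Skeletal muscle markers summed to 2281.0 CPM in casein MR library C_MR_3438 and to at most 78.6 CPM in the other casein MR libraries. No marker list had a member at 0 in all libraries of a group. The part of cell composition in the Cyp4a values was not tested, and without library C_MR_3438 all 5 calls of Cyp4a genes between the MR diets and all 3 on the difference remained.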

How the data were processed

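Raw counts per gene were used as deposited, and the authors' aligner, counter and genome build are not named in the sources used here. A second deposited table held the same counts as a normalized signal, each value being the count divided by 1 factor per library (0.745 to 1.324), and served only for symbols (13002 genes, with 2119 more from the reference and 40 without a symbol). No per-sample column was left unmapped. Counts were fitted with edgeR 4.0.16 in R 4.3.3 (TMM, filterByExpr, quasi-likelihood test, 24 libraries, 1 mean per group), with Benjamini-Hochberg adjustment over 13441 genes holding 99.93% of counts. Log2 CPM used a prior count of 2. CPM were divided by the length in kilobases covered by all GENCODE M21 exons of the gene, merged, for levels per length. Permutation tests were two-sided, used 100000 resamples and exchanged libraries within diet groups. DESeq2 1.42.0 and limma-voom 3.58.1 were alternatives, with other scalings and filters, summed copies and each library left out. The fit was tested on simulated data. No pair of libraries within a group held identical values. Members and gene lists were chosen with earlier results of these data known. Named genes were all tested Cyp4 genes, fixed regulators, PPARalpha targets and sex-biased genes, genes within 10 places of a member, and the 3 nearest genes by pattern. Mappability used transcripts only. Promoter and protein sequences were not used here. Values of a few genes chosen by this rule are left out of the text.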

Additional observations from a re-analysis of the deposited data

Results flagged for a closer look

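The effect of MR differed between casein and elemental amino acids in edgeR's test of the difference itself for 3 of the 6 genes. On the log2 scale the difference was 1.89 for Cyp4a10 (1.02 ± 0.29 on elemental amino acids, 2.91 ± 0.31 on casein), 2.17 for Cyp4a14 (2.04 ± 0.34 and 4.22 ± 0.38) and 2.35 for Cyp4a31 (1.76 ± 0.27 and 4.10 ± 0.30). These calls held in all alternative fits, with adjusted p-values of up to 0.0199 for Cyp4a10, 0.0237 for Cyp4a14 and 0.00693 for Cyp4a31. The casein MR diet differs from the elemental MR diet in protein source and in oxidation, which cannot be told apart. By Dixon's criterion, 2 libraries stood apart from their groups of 6 on the linear CPM scale and none on the log2 scale, over 24 groups, of which chance alone marks about 1 in 20 on each scale. Library E_MR_3420, at 268.9 CPM, was high for Cyp4a12a on elemental MR (gap 0.675 of the group's range), and without it the log2 fold change with MR was -2.01 in place of -1.53. Library C_MR_3425, at 443.7 CPM, was high for Cyp4a31 on casein MR (gap 0.647 of the range), and without it the log2 fold change was 3.88 in place of 4.10.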

How the results depend on the processing

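No value changed direction under any alternative. Of 954 single-gene values 939 stayed on their side of the threshold or, where untested, moved by less than the spread between libraries. That spread is wide for Cyp4a12b on casein MR. Part of the 939 could hardly move. A member's MR effect on 1 protein source scarcely depends on libraries of the other source, each of which was also left out in turn. Between the control diets 14 genes were called in edgeR, against 89 with DESeq2, 3 with limma-voom and 7 when only the groups compared were fitted, and 5 to 33 (without C_C_3407) when 1 library was left out; in these fits no Cyp4a gene was called. The count of correlated pairs, 4 of 15, ran from 3 to 7 when 1 library was left out, with 7 without C_C_3436. Leaving out 1 library gave 1400 to 1903 genes for MR on elemental amino acids, 2851 to 3174 for MR on casein, 227 to 404 for the difference and 664 to 952 between the MR diets. With copies summed, the log2 fold change with MR was 1.07 and 2.99 for the set of Cyp4a10, Cyp4a31 and Cyp4a32, and -1.76 and -0.59 for the Cyp4a12 pair, whose sum is mostly Cyp4a12a, against -3.87 and -1.80 for Cyp4a12b alone; the pair's difference was 1.17 (2.08 for Cyp4a12b) and its value between the MR diets 1.81 (2.82). The fit on only the groups compared was not run for the difference, which needs all 4. No paired analysis was possible because the groups share no replicate numbers. Counts were lowest for Cyp4a32 (5 to 72 per library) and for Cyp4a12b on elemental MR (47 to 164).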
